A study of Mus musculus with 12 samples.

Results

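The genes described here are 10 components of the Notch pathway, 3 receptors (Notch1, Notch2 and Notch3), 3 ligands (Dll1, Dll3 and Jag1) and 4 HES and HEY transcription factors (Hes1, Hes5, Hes6 and Hey1). They were taken by symbol from the 55487 genes listed for each library. All 10 were found, and all 10 passed the filter on low counts that left 16798 genes for testing. RNA from ventricular zone that had been laser-microdissected out of the dorsal cortex of embryonic mice was sequenced in 12 libraries, 3 for each of 4 groups.

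The mice carry in ROSA26 a cassette in which a floxed stop sequence precedes p18-P2A-mKO2, so that Cre recombination gives p18, the CDK4 and CDK6 inhibitor encoded by Cdkn2c, together with the fluorescent protein mKO2. Tamoxifen was injected intraperitoneally in every group, the p18mKO2- groups included. The 4 groups are p18mKO2- (labelled normal) at E13.5, p18mKO2+ (labelled p18mKO2 over-expression) at E13.5, and the same pair at E16.5. The Cre driver and the day of injection are not given in the sources used. Nor is it stated whether replicates are separate embryos, and p-values therefore reflect only how far these libraries differ, some of which may be technical. The study asks how cyclin-dependent kinase inhibitors bear on the change from neuron to astrocyte production.

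Notch receptors are membrane proteins that are cut when a ligand on a neighbouring cell binds them, and the freed intracellular part enters the nucleus and activates genes together with the DNA-binding protein RBPJ. Hes1, Hes5 and Hey1 are direct targets of that complex and repress proneural genes, which keeps radial glia dividing and undifferentiated. Proneural factors in turn raise Dll1 in cells that are about to become neurons, and these cells signal back to the remaining radial glia. Bulk tissue mixes both kinds of cell, so fewer cells of a type and less RNA per cell cannot be told apart.

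The promoter windows of 4 members are shown first because they carry the short motifs tied to this circuit: RBPJ (GTGGGAA), the proneural E-box (CAGCTG) and the N-box bound by HES factors (CACNAG), each searched on both strands. RefSeq windows on GRCm38.p6 matched 8 of the 10 members, with 10 windows in all, and not Hes1 or Hey1. Each sequence holds the 250 bases before an annotated start on the gene's own strand, 5′ to 3′, with motif matches in capitals. For Hes6 and Dll1, which have a pair of windows each, the outer window is printed. The bases after the start of the outer Dll1 window and of the Notch3 window were not found in a transcript of the gene annotation used here.
Hes5, chr4:154960673-154960922, plus strand: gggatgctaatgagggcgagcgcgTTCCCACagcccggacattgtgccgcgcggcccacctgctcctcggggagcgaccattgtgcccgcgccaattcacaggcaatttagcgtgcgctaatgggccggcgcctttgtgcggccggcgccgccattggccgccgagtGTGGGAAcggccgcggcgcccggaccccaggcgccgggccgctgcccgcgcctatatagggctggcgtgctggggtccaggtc
Dll1, chr17:15376933-15377182, minus strand: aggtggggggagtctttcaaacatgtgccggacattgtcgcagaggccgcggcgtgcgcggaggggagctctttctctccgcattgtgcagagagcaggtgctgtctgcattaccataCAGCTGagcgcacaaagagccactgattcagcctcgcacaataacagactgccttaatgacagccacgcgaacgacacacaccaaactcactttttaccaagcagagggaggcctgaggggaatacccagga
Dll3, chr7:28301786-28302035, minus strand: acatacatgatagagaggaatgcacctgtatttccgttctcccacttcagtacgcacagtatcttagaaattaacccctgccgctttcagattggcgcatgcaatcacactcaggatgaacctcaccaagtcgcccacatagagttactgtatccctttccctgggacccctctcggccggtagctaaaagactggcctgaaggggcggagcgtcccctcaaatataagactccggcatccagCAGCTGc
Hes6, chr1:91414039-91414288, minus strand: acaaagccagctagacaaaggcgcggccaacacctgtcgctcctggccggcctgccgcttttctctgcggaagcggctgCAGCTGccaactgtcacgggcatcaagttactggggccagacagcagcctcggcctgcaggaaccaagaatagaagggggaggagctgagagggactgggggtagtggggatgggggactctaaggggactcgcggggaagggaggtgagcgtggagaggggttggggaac

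Hes5 was the only member whose window held the RBPJ motif, and it held 2 copies. The first lay 226 to 220 bases before the start on the minus strand and the second 83 to 77 bases before it on the plus strand. Among 32817 promoter windows of the same length, 5.42% held at least 1 copy and 0.162% held 2 or more. The E-box was found in the windows of Dll1, Dll3, Jag1 and Hes6, against 13% of all windows, and it ends 2 bases before the Dll3 start. The N-box occurred in windows of Notch1, Notch2, Notch3 and Hes6 and in 36.7% of all windows. These are matches of letters only, and no binding was measured here.

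Total estimated counts lay between 17101971 and 21837088 per library. Levels are given as TPM, or as CPM (counts scaled by TMM to a common library size), with the SD of the 3 libraries of a group (n = 3 throughout). Changes are log2 fold changes of counts with their SE, tested by edgeR's quasi-likelihood method with Benjamini-Hochberg adjustment over all genes tested, and a gene is called when its adjusted p is under 0.05. Cdkn2c, which encodes p18, was taken as a check of the labels. It averaged 23.3 ± 5.08 CPM without and 25.7 ± 5.997 CPM with the p18mKO2 label at E13.5, and 23.1 ± 8.36 and 29.0 ± 2.76 CPM at E16.5. Neither pair was called different (edgeR adjusted p = 0.798 and 1). On the deposited TPM scale its ranges were separate and higher in p18mKO2+ at both stages. The median gene was also higher there, by 0.14 and 0.23 on log2(TPM + 1), and the mean length assigned to Cdkn2c at E13.5 was 1458 to 1799 bases in p18mKO2+ against 1766 to 1938 in p18mKO2-. By counts, Cdkn2c differed 1.10-fold at E13.5 and 1.25-fold at E16.5, so the check did not show over-expression of p18 by counts. Below, p18 effect names the difference between p18mKO2+ and p18mKO2- libraries. The third E16.5 p18mKO2- library stood apart, with 8.284% of counts from mitochondrial genes against 3.181% to 4.528% elsewhere. The library of replicate 3 in each p18mKO2+ group held both Xist and Y-linked transcripts, while the E13.5 p18mKO2- libraries held at most 0.422 CPM of Y-linked transcripts. The second E13.5 p18mKO2+ library held 179.8 CPM of Y-linked transcripts and 3.594 CPM of Xist. At E16.5 Y-linked transcripts without high Xist were found in the second p18mKO2- library (161.8 CPM) and the first and second p18mKO2+ libraries (142.4 and 195.6 CPM). The sex makeup of the libraries thus differed between the labels at both stages. The 8 radial glia markers summed to group means of 1874 to 2581 TPM, and 6 neuron markers to 1087 to 3239 TPM. None of the 8 was at 0 in a whole group, which also held for neuron and microglia markers.

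Per length of transcript, Hes6 was the most abundant member in all 4 groups, and its TPM range was separate from that of the next member in each. Hes6 counteracts Hes1 and is linked to neuronal differentiation. In E13.5 p18mKO2- the order by TPM was Hes6, Dll1, Hes5, Hes1, Hey1, Notch1, Notch2, Notch3, Dll3 and Jag1. The neighbours Hes1 and Hey1, and Hey1 and Notch1, overlapped in that order, and all other neighbours had separate ranges. In E16.5 p18mKO2- Hes6 was followed by Notch1, Dll1, Notch2, Hes1, Hey1, Hes5, Jag1, Dll3 and Notch3, and only Hes6 from Notch1 and Hes5 from Jag1 had separate ranges. By mean, Hes5 stood above both Hes1 and Notch1 at E13.5 and below both at E16.5 in the p18mKO2- groups. In the third E16.5 p18mKO2- library it was above both, with ratios of 1.23 to Hes1 and 1.36 to Notch1, against 0.737 and 0.704 to Hes1 and 0.491 and 0.502 to Notch1 in the other libraries of that group.

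Among the receptors, Notch1 is the main radial glia receptor of the cortex. Notch1 was at 40.1, 43.2 and 32.8 TPM in E13.5 p18mKO2-, 39.0, 38.6 and 31.2 TPM in E13.5 p18mKO2+, 29.5, 21.8 and 7.57 TPM in E16.5 p18mKO2-, and 29.4, 32.6 and 20.6 TPM in E16.5 p18mKO2+. Its p18mKO2- and p18mKO2+ libraries overlapped at both stages, and the lowest value was the third E16.5 p18mKO2- library. Notch2, which is linked to slowly dividing neural stem cells, was at 27.7, 27.5 and 21.4 TPM, then 24.0, 22.3 and 14.7, then 22.4, 21.6 and 7.01, and then 26.2, 28.8 and 15.4 TPM in the groups in that order. All 4 groups of Notch2 overlapped in TPM. Notch3, a receptor of radial glia and of pericytes, was at 18.4, 17.9 and 15.8 TPM, then 22.3, 14.1 and 18.5, then 7.58, 6.38 and 2.41, and then 9.04, 10.4 and 7.38 TPM. Every E16.5 library lay below every E13.5 library.

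Among the ligands, Dll1 is the activating ligand shown by newborn neurons and intermediate progenitors. Dll1 was at 87.96, 89.3 and 112.4 TPM in E13.5 p18mKO2-, 51.4, 50.5 and 64.6 TPM in E13.5 p18mKO2+, 22.03, 19.4 and 16.1 TPM in E16.5 p18mKO2-, and 28.0, 28.0 and 17.7 TPM in E16.5 p18mKO2+. The groups at E13.5 did not overlap each other or the E16.5 libraries, while the pair at E16.5 overlapped. Dll3, a divergent ligand that acts within the cell and does not activate receptors on neighbours, was at 10.6, 10.9 and 14.6 TPM, then 11.2, 17.7 and 17.4, then 8.66, 9.56 and 5.79, and then 9.20, 11.7 and 11.2 TPM. Jag1, an activating ligand of the Serrate type, was at 7.63, 9.12 and 9.37 TPM, then 6.32, 7.33 and 13.2, then 8.36, 10.0 and 6.33, and then 11.7, 11.4 and 4.54 TPM. Jag1 overlapped between all 4 groups.

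Among the transcription factors, Hes5 is the target most tightly tied to Notch signalling in cortical radial glia. Hes5 was at 81.8, 73.4 and 76.3 TPM in E13.5 p18mKO2-, 47.4, 57.2 and 55.5 TPM in E13.5 p18mKO2+, 14.5, 10.96 and 10.3 TPM in E16.5 p18mKO2-, and 19.3, 17.03 and 25.4 TPM in E16.5 p18mKO2+. No pair of groups overlapped on this scale. Hes1, which oscillates in dividing progenitors, was at 56.2, 49.4 and 56.6 TPM, then 27.0, 43.6 and 23.1, then 19.7, 15.6 and 8.40, and then 17.4, 23.4 and 9.57 TPM. The E13.5 p18mKO2- libraries were the highest of Hes1, and the other groups included overlapping values.

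Hey1, a related repressor that can pair with HES proteins, was at 62.1, 57.8 and 37.9 TPM in E13.5 p18mKO2-, 40.97, 37.96 and 19.7 TPM in E13.5 p18mKO2+, 16.9, 16.8 and 8.75 TPM in E16.5 p18mKO2-, and 21.6, 20.2 and 13.6 TPM in E16.5 p18mKO2+. Its groups at E13.5 overlapped in TPM. Hes6 was at 124.5, 132.0 and 145.7 TPM, then 106.0, 111.8 and 100.7, then 92.8, 100.5 and 56.0, and then 108.9, 93.5 and 101.0 TPM in the groups in that order. The E13.5 p18mKO2- libraries were again the highest.

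**Figure D1:**
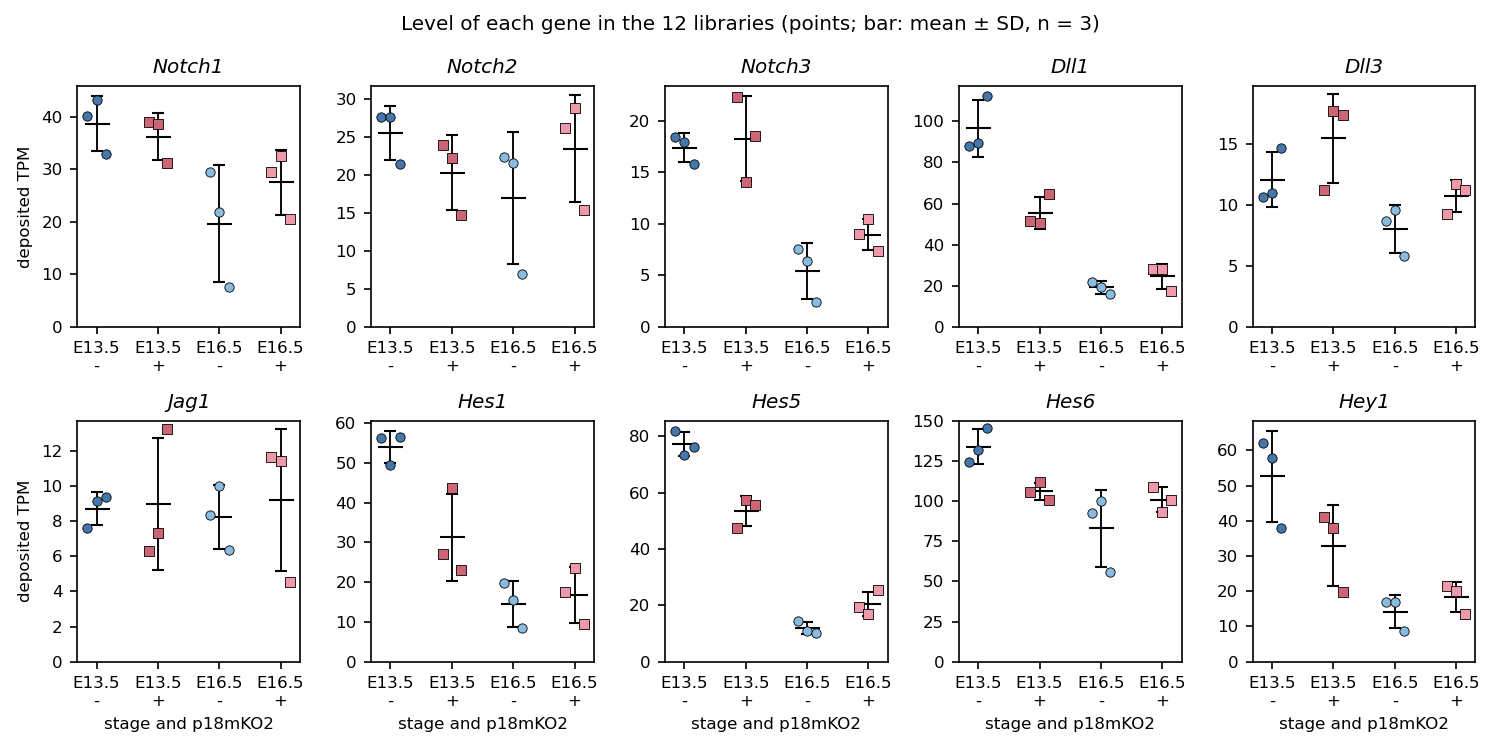
Deposited TPM (vertical axis, from 0) of each of the 10 genes in the 4 groups (horizontal axis, embryonic day and p18mKO2 label), with 1 point per library and the mean ± SD of 3 libraries as bars. Hes5 lay between 73.4 and 81.8 TPM in E13.5 p18mKO2- and between 10.3 and 14.5 TPM in E16.5 p18mKO2-, while Jag1 overlapped in all groups.

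The change between stages was first taken within p18mKO2- tissue. From E13.5 to E16.5, 8 of the 10 genes fell, and none rose: Notch1, Notch3, Dll1, Dll3, Hes1, Hes5, Hes6 and Hey1. Of all genes tested, 13.4% were called lower and 16.4% higher. The median log2 change of the 10 was -1.28, against -0.02 for all genes tested. CPM ranges were separate and lower at E16.5 for 9 of the 10, all but Jag1, against 19.4% of all genes (21% were separate and higher). On the TPM scale 8 of the 10 were, all but Notch2 and Jag1, and the share of all genes was not taken.

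Hes5 fell the most, from 46.7 ± 6.26 to 8.36 ± 1.38 CPM, by 2.48 ± 0.23 in log2 (edgeR adjusted p = 6.42e-06). Dll1 fell from 122.2 ± 19.6 to 27.9 ± 6.34 CPM, by 2.13 ± 0.18 in log2 (edgeR adjusted p = 2.25e-06). Hes1 fell by 1.86 ± 0.29 (edgeR adjusted p = 0.000334). These 3 genes are the ligand and targets of the feedback between neighbouring cells. Notch3 fell by 1.71 ± 0.28 (edgeR adjusted p = 0.000396) and Hey1 by 1.54 ± 0.23 (edgeR adjusted p = 0.000205). Smaller falls were those of Notch1, with a log2 change of -1.02 ± 0.30, Dll3, with -0.71 ± 0.18, and Hes6, with -0.68 ± 0.16. Notch2, at -0.62 ± 0.30 (edgeR adjusted p = 0.141), and Jag1, at -0.18 ± 0.21 (edgeR adjusted p = 0.579), were not called.

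The targets and the ligands therefore moved unequally. The ratio of Hes5 to Hes6 TPM was 0.579 ± 0.0696 in E13.5 p18mKO2- and 0.150 ± 0.0379 in E16.5 p18mKO2-. The ratio of Dll1 to Dll3 TPM was 8.05 ± 0.317 and 2.45 ± 0.385, and that of Dll1 to Jag1 TPM was 11.1 ± 1.16 and 2.37 ± 0.380. None of these 3 ratios overlapped between the stages. Without either of the first 2 E13.5 p18mKO2- libraries, 7 of the 10 genes were called lower, Notch1 being lost, and without the third E16.5 p18mKO2- library, the one with the high mitochondrial share, 8 were.

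At E13.5, p18mKO2+ tissue had less Dll1, Hes1, Hes5 and Hey1 than p18mKO2- tissue. These 4 of 10 genes were called lower and none higher, where 3.49% of all genes tested were called lower and 7.29% higher (10.8% in all). The median log2 change was -0.50 over the 10 genes and 0.01 over all genes tested. Of the calls over all genes, 67.6% were higher in p18mKO2+ by counts and 87.5% by TPM. Short and long genes also differed with the label. The median log2 deviation of 877 genes under 1000 bases was 0.121 to 0.386 in p18mKO2- and -0.155 to 0.115 in p18mKO2+ libraries. For 564 genes of the longest class it was -0.412 to -0.131 and -0.052 to 0.12. In E16.5 p18mKO2- the short class was at -0.243 to 0.159 and the longest class at 0.01 to 0.313. Between the stages in p18mKO2- the longest class was thus also separate, while the short class overlapped. Hes5 (797 to 1144 bases) and Hes1 (1218 to 1465) are short, and Notch1 (8900 to 9472) and Notch2 (10500) long. Dll1 and Hey1 lay between them. The part of length in these differences, and in the stage change, was not tested.

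Hes1 had the largest difference of the 10, with 43.9 ± 4.81 CPM in the p18mKO2- libraries against 20.9 ± 6.27 CPM in the p18mKO2+ libraries, or -1.07 ± 0.28 in log2 (edgeR adjusted p = 0.028). Hes5 averaged 46.7 ± 6.26 against 24.6 ± 6.53 CPM, or -0.93 ± 0.22 (edgeR adjusted p = 0.0165). Dll1 averaged 122.2 ± 19.6 against 74.3 ± 5.09 CPM, or -0.72 ± 0.17 (edgeR adjusted p = 0.016). The libraries of each of these 3 genes separated fully between the groups, in CPM and in TPM. Hey1, at -0.74 ± 0.22 (edgeR adjusted p = 0.0494), was just inside the threshold, and Hes6, at -0.52 ± 0.16 (edgeR adjusted p = 0.0513), just outside it.

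The receptors and the other ligands were not called at E13.5. Notch1 had a log2 change of -0.29 ± 0.29, Notch2 of -0.49 ± 0.30 and Notch3 of -0.39 ± 0.27. The 95% interval for Notch1 ran from -0.92 to 0.34. Dll3 was the single gene with a positive value, 0.47 ± 0.18 (edgeR adjusted p = 0.113), and its CPM ranges were separate, with p18mKO2+ higher. CPM ranges were separate and lower in p18mKO2+ for 7 of the 10 genes (Notch2, Notch3, Dll1, Hes1, Hes5, Hes6 and Hey1), against 14.1% of all genes tested, and separate and higher for Dll3, against 16.6% of all genes. On the TPM scale 4 of the 10 (Dll1, Hes1, Hes5 and Hes6) were separate and lower, and the other 6, Dll3 among them, overlapped. The share of all genes was not taken on that scale. The ratio of Dll1 to Dll3 TPM was 8.05 ± 0.317 in p18mKO2- and 3.72 ± 0.862 in p18mKO2+, with no overlap, whereas the ratio of Hes5 to Hes6 TPM, 0.579 ± 0.0696 and 0.504 ± 0.0526, overlapped.

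These calls at E13.5 rest on few libraries. None of the 10 genes was called without the third E13.5 p18mKO2- library or without the first E13.5 p18mKO2+ library. Without the first E13.5 p18mKO2- library only Dll1 was called, and without the second, or without the third E13.5 p18mKO2+ library, only Dll1 and Hes5. Over 23 alternative settings Dll1 and Hes5 were called in 18 each, Hes1 in 14, Hey1 in 8 and Hes6 in 7. On log2(TPM + 1) only Dll1 was called, at -0.79 (limma adjusted p = 0.0379), with Hes5 at -0.53 (limma adjusted p = 0.112) and Hes1 at -0.82 (limma adjusted p = 0.182). On that scale the median of all genes was itself 0.14, and relative to it Dll1 stood at -0.93, Hes5 at -0.67 and Hes1 at -0.96. Notch3 changed sign there, to 0.0488, and stood at -0.0921 relative to that median. With the ribosomal RNA gene CT010467.1 as a covariate, whose share of counts ran from 1.786% to 13.58%, none of the 10 was called, while the changes were -0.67 for Dll1, -0.78 for Hes5, -0.90 for Hes1 and -0.56 for Hey1. That share was 5.324% to 8.797% in E13.5 p18mKO2- and 2.81% to 6.637% in E13.5 p18mKO2+. At E16.5 it was 6.281% to 13.58% and 1.786% to 3.971%, so the covariate goes in part with the label. Without both libraries that held Xist and Y-linked transcripts, and with Y-linked expression as a covariate, only Hes5 was called, at -1.02 and -1.09. Dll1 was at -0.78 and -0.70, Hes1 at -0.91 and -1.23 and Hey1 at -0.53 and -0.83 under these settings.

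**Figure D2:**
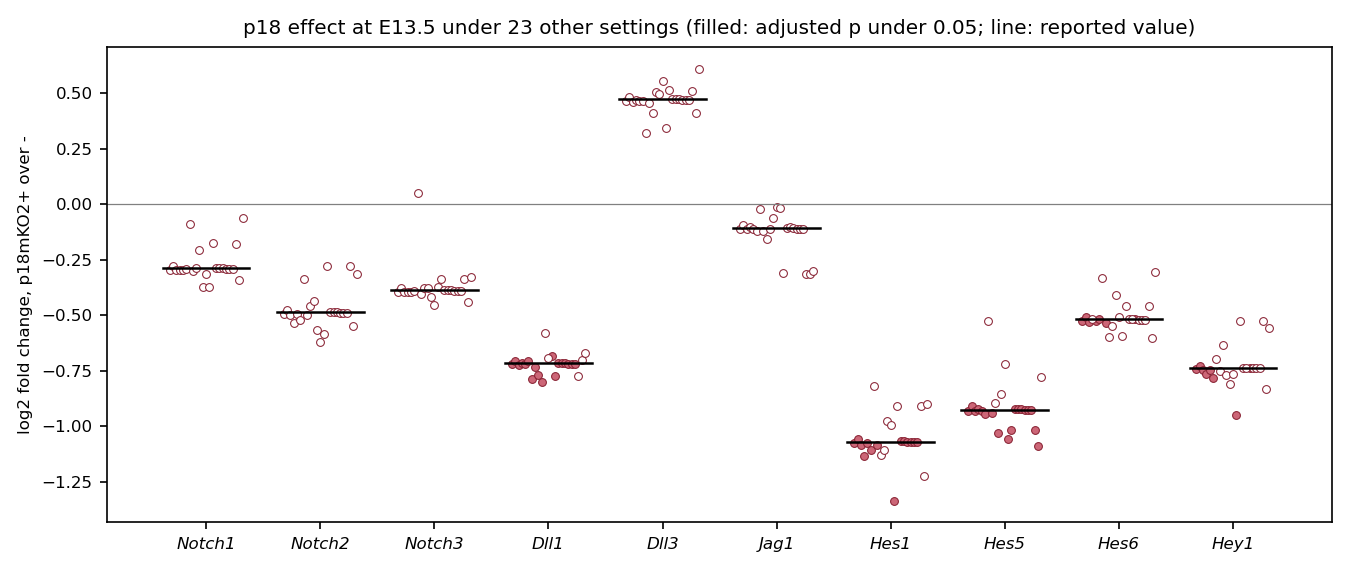
Log2 fold change of each gene in p18mKO2+ over p18mKO2- at E13.5 (vertical axis) under 23 other settings (points, filled where the adjusted p was under 0.05; 1 point per gene is on the log2(TPM + 1) scale), with the reported value as a line. Notch1, Notch2, Dll1, Jag1, Hes1, Hes5, Hes6 and Hey1 lay below 0 under every setting shown, and the settings share libraries. The number of filled points was 18 for Dll1 and Hes5.

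At E16.5 none of the 10 genes was called between p18mKO2+ and p18mKO2-, and none of the 16798 genes tested was (0%). Before adjustment 426 genes had a p under 0.05, Dll3 alone among the 10. DESeq2 called 16 genes and limma-voom 2, none of them among the 10. Dll3 averaged 8.12 ± 0.413 against 11.1 ± 0.892 CPM, higher with the label by 0.44 ± 0.18 in log2, with a 95% interval of 0.054 to 0.835 (edgeR adjusted p = 1). Its CPM ranges were separate, as were those of 4.07% of all genes in that direction and 3.88% in the other. The intervals bound what could have been missed. For Hes5 the change was 0.40 ± 0.23 with an interval of -0.091 to 0.885. For Dll1 it was 0.25 ± 0.17 with -0.123 to 0.615, and for Hes1 -0.07 ± 0.29 with -0.692 to 0.552. The lower ends for Hes6 and Hey1 were -0.314 and -0.594. For Hes5, Dll1, Hes1, Hes6 and Hey1 the lower end lies above the log2 change at E13.5, which has an error of its own. The E13.5 intervals of Hes1 (-1.683 to -0.459), Hes6 (-0.86 to -0.179) and Hey1 (-1.219 to -0.26) overlapped those at E16.5. Those of Hes5 and Dll1 did not. A direct test of the difference is given below. On the TPM scale Hes5 was higher in every p18mKO2+ library, with a change of 0.73 (limma adjusted p = 0.582). The median of all genes was 0.23 there. In CPM the ranges of Hes5 overlapped, and the share of all genes separate in TPM was not taken. Without the third E16.5 p18mKO2- library the values of Notch1 and Notch2, 0.22 and 0.215, turned to -0.12 and -0.10.

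The difference between the stages was tested directly. Of the 10 genes, Hes5 was called, with a p18 effect that was 1.32 ± 0.32 higher at E16.5 than at E13.5 on the log2 scale (edgeR adjusted p = 0.0412), where 0.298% of all genes were called in that direction and 2.4% in the other (2.7% in all). Dll1 followed at 0.96 ± 0.24 (edgeR adjusted p = 0.0502), just past the threshold, then Hes1 at 1.001 ± 0.41 (edgeR adjusted p = 0.228). For 9 of the 10 genes the value was positive, with a median of 0.67 against -0.03 over all genes. Dll3 was the exception at -0.03 ± 0.26, whose change was 0.47 at the earlier and 0.44 at the later stage. The Hes5 call held in 8 of 22 alternative settings. It was lost without any single library other than the second E13.5 p18mKO2+ and the first E16.5 p18mKO2- ones, where 1 and 2 genes were called, and on the TPM scale it stood at 1.26 (limma adjusted p = 0.0765).

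Between stages within p18mKO2+ tissue, Dll1 and Hes5 fell, and no other of the 10 was called, where 0.554% of all genes were called lower and 1.08% higher (1.64% in all). Hes5 went from 24.6 ± 6.53 to 10.99 ± 1.98 CPM, or -1.16 ± 0.22 in log2 (edgeR adjusted p = 0.0196). Dll1 went from 74.3 ± 5.09 to 33.1 ± 3.64 CPM, or -1.17 ± 0.17 (edgeR adjusted p = 0.00399). Notch3, at -1.002 ± 0.27, Hey1, at -0.91 ± 0.23, Hes1, at -0.86 ± 0.29, and Dll3, at -0.74 ± 0.18, were negative and not called. Notch2, at 0.08 ± 0.30, was the only positive value. CPM ranges were separate for 7 of the 10, each lower at E16.5, where 26.6% of all genes were separate in one direction or the other. On the TPM scale 3 of the 10 (Notch3, Dll1 and Hes5) were separate and lower and 7 overlapped, and the share of all genes was not taken. The number called was 1 without the second E13.5 p18mKO2+ library or without the first or the second E16.5 p18mKO2+ library, 3 without the third E13.5 p18mKO2+ library, and 5 without the third E16.5 p18mKO2- library, which is in neither group compared. It was 0 without both libraries that held Xist and Y-linked transcripts. The changes above share libraries with one another, since the E13.5 p18mKO2- libraries are the reference both of the stage change and of the p18 effect.

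**Figure D3:**
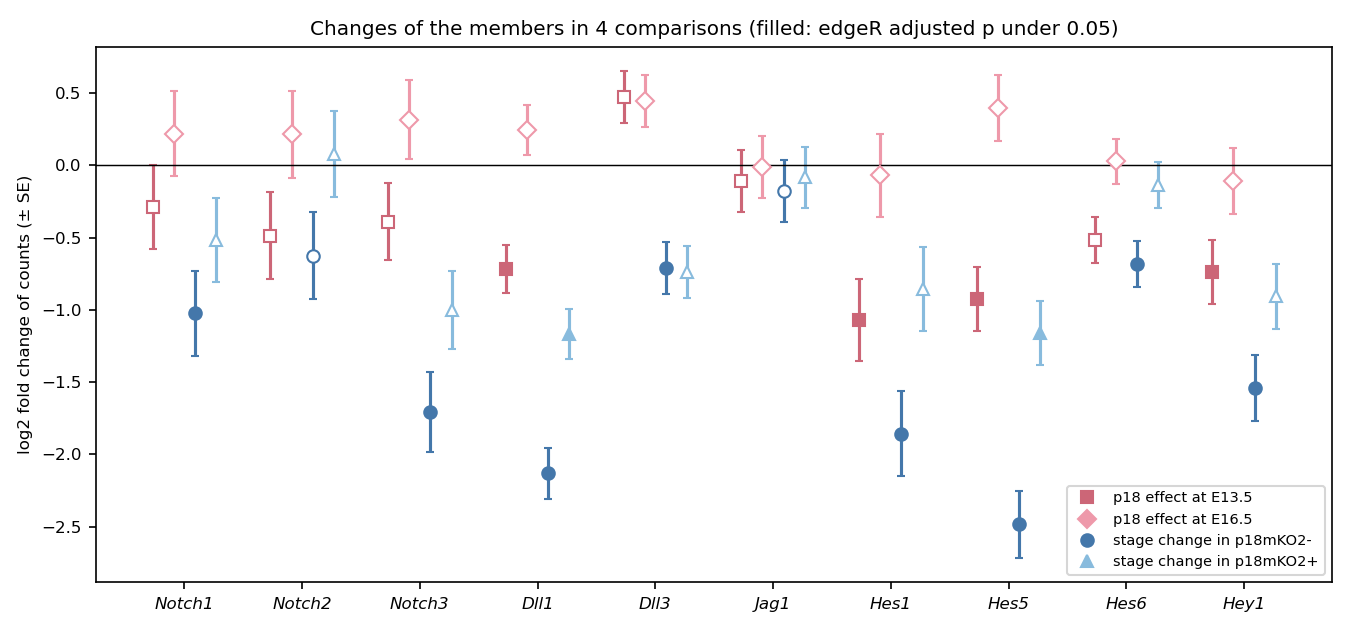
Log2 fold changes ± SE of the 10 genes (vertical axis) in 4 comparisons, filled where the edgeR adjusted p was under 0.05. Stage changes in p18mKO2- reach -2.48 for Hes5, and no symbol is filled for the p18 effect at E16.5.

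Markers of the cell types in the tissue moved with these comparisons. The summed TPM of 6 neuron markers was 990.4 to 1217 in E13.5 p18mKO2-, 2017 to 2740 in E13.5 p18mKO2+, 2798 to 2982 in E16.5 p18mKO2- and 3046 to 3539 in E16.5 p18mKO2+. The ranges at E13.5 did not overlap. Of the 6, 5 were called higher in p18mKO2+ at E13.5, and 6 were called higher at E16.5 in p18mKO2-. The summed TPM of 8 radial glia markers was 2418 to 2769, 1856 to 2417, 1428 to 2359 and 2109 to 2487 in the same order, and 3 of 8 were called lower in p18mKO2+ at E13.5 and 5 lower and 1 higher at E16.5 in p18mKO2-. The 4 intermediate progenitor markers summed to 349.4 to 566.8, 251.3 to 442.9, 234.8 to 385.0 and 309.9 to 357.4 TPM. The part of these shifts in the Notch results was not tested.

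Notch3 and Jag1 are also expressed by vessels. The 6 pericyte markers summed to 22.4 to 29.8, 43.8 to 49.6, 54.7 to 67.8 and 54.3 to 86.8 TPM in the 4 groups in order, and the 7 endothelial markers to 40.8 to 60.3, 63.4 to 68.1, 54.8 to 75.7 and 73.2 to 92.1 TPM. No marker of these lists was at 0 in a whole group. The pericyte sum was higher at E16.5 than at E13.5 in p18mKO2-, while Notch3 was lower. The part of vessel cells in the Notch3 and Jag1 values was not tested. Ventral and interneuron markers summed to 79.5 to 220.6, 287.2 to 407.3, 87.7 to 102.2 and 192.3 to 348.9 TPM, so that they were higher in p18mKO2+ at both stages, and their part was likewise not tested. Markers of the other lists, in the order of the groups, were at 16.8 to 25.6, 17.7 to 22.5, 16.7 to 30.7 and 23.3 to 29.7 TPM for microglia, and at 31.98 to 48.05, 19.6 to 37.9, 10.4 to 22.8 and 6.44 to 29.3 TPM for meninges. Erythroid markers were at 3688 to 4012 TPM in E13.5 p18mKO2- and 640.7 to 2643 TPM in the other groups. Hem and choroid plexus markers varied widely within groups, from 21.5 to 503.3 TPM in E13.5 p18mKO2- and from 480.4 to 2657 TPM in E16.5 p18mKO2+, and Wnt8b and Wnt3a were at 0 in E16.5 p18mKO2-.

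Set against the radial glia markers, Notch3, Dll1, Hes1, Hes5 and Hey1 of p18mKO2- tissue were lower at the later stage with separate ranges. Jag1 was higher with separate ranges. In TPM itself Jag1 overlapped between these stages, with means of 8.71 and 8.23, while the radial glia sum averaged 2581 and then 1874 TPM. The share of all genes with separate ranges relative to radial glia markers was not taken. Notch1, Notch2, Dll3 and Hes6 overlapped between the stages on this scale, although Notch1, Dll3 and Hes6 were called by counts. Notch1 was at 15.07 ± 2.56 and 10.22 ± 5.46 and Dll3 at 4.69 ± 0.955 and 4.28 ± 0.384 TPM per 1000 TPM of radial glia markers. Hes5 stood at 29.9 ± 0.405 TPM per 1000 TPM of radial glia markers in E13.5 p18mKO2-, with libraries between 29.6 and 30.4, and at 6.59 ± 1.72 in E16.5 p18mKO2-. The p18mKO2+ means were 24.5 ± 5.17 at the earlier stage and 9.05 ± 2.68 at the later. At E13.5 the p18mKO2+ libraries, at 19.6, 24.0 and 29.9, reached into the p18mKO2- range, so on this scale the groups overlapped. Hes1 was at 20.9 ± 1.03 in p18mKO2- and 13.96 ± 3.79 in p18mKO2+ at E13.5, without overlap, and Dll1 at 37.6 ± 6.14 and 25.7 ± 7.84, with overlap. Notch2 was at 9.93 ± 1.51, 9.06 ± 1.03, 8.76 ± 3.67 and 10.04 ± 2.37 in the 4 groups, and Hes6 at 52.2 ± 6.37, 48.3 ± 5.36, 44.1 ± 5.82 and 44.1 ± 5.64.

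**Figure D4:**
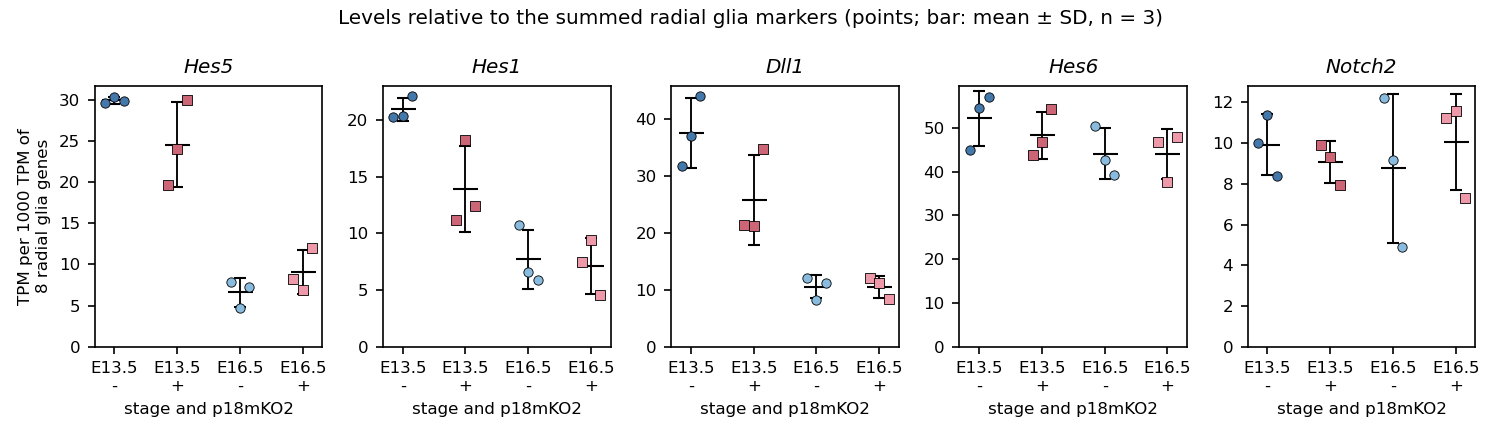
TPM of 5 genes per 1000 TPM of 8 summed radial glia markers (vertical axis, from 0) in the 4 groups, with 1 point per library and mean ± SD as bars. Hes5 averaged 29.9 at E13.5 and 6.59 at E16.5 in p18mKO2-, and its E13.5 groups overlap.

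The rest of the pathway was described from a list of 55 other genes, of which 51 were tested. At E13.5, 4 of the 51 were higher and 1 lower in p18mKO2+, with a median log2 change of 0.10. These counts are close to what the shares over all genes, 7.29% higher and 3.49% lower, give for a list of that size. Dtx1, a Deltex ubiquitin ligase that modulates receptor trafficking, was at 32.3, 23.7 and 19.2 CPM in p18mKO2- and at 71.9, 69.9 and 70.8 CPM in p18mKO2+. The groups were far apart, with a change of 1.498 ± 0.17 (edgeR adjusted p = 0.000193). The corepressor Tle4, which is also a marker of deep layer neurons, rose by 0.78 ± 0.14 (edgeR adjusted p = 0.00418), the gamma-secretase subunit Aph1b by 0.71 ± 0.15 (edgeR adjusted p = 0.0098) and the ubiquitin ligase Neurl1b by 0.68 ± 0.20 (edgeR adjusted p = 0.0407). Hdac1, a histone deacetylase of repressor complexes, fell by 0.54 ± 0.13 (edgeR adjusted p = 0.0203). The number called was 2 without the first E13.5 p18mKO2+ library, 3 without the third or without the second E13.5 p18mKO2- library, and 8 without the second E13.5 p18mKO2+ library.

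Receptors, ligands and HES and HEY factors of that list were not called at E13.5. Hey2 had a log2 change of -1.23 ± 0.51, Notch4, a receptor of endothelium, of -0.24 ± 0.29, Dll4, an endothelial ligand, of -0.23 ± 0.40, and Heyl of -0.01 ± 0.42. The HES-related gene Helt was at 0.95 ± 0.90. Jag2 was at 0.42 ± 0.25, and the noncanonical ligands Dner, Dlk1 and Dlk2 were at 1.04 ± 0.36, 1.03 ± 0.54 and 1.99 ± 0.67. In p18mKO2- between stages, 8 of the 51 rose and 11 fell, with a median of 0.06, where 16.4% of all genes rose and 13.4% fell. The number that rose is close to that share. Dtx1 rose by 2.003 ± 0.17, Tle4 by 1.56 ± 0.15, Neurl1b by 1.39 ± 0.20, Aph1b by 0.93 ± 0.15 and the endocytic adaptor Epn2 by 0.73 ± 0.13, while Hdac1 fell by 1.03 ± 0.14. Among ligands Jag2 rose by 1.13 ± 0.25 and Dlk2 by 2.77 ± 0.68, Dlk1 fell by 1.58 ± 0.56, and among target factors Hey2 fell by 2.58 ± 0.54. Helt, a HES-related factor at 1.62 ± 2.08 CPM in E13.5 p18mKO2- and 0.0579 ± 0.1004 CPM in E16.5 p18mKO2-, was also called lower (edgeR adjusted p = 0.00931). Of 5 glycosyltransferases, which modify the receptors' outer part, 3 fell and none rose.

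At E16.5 none of the 51 was called between p18mKO2+ and p18mKO2-, with a median of 0.08 and 1 at an unadjusted p under 0.05. Between stages in p18mKO2+, Neurl1b alone of the 51 was called, at 0.86 ± 0.19 (edgeR adjusted p = 0.0427), which is close to the 1.64% of all genes called. It was lost without several single libraries, the second E16.5 p18mKO2-, each E16.5 p18mKO2+ and the first E13.5 p18mKO2+ one, and 4 genes were called without the third E16.5 p18mKO2- library. The p18 effect differed between the stages for Dtx1, by -1.32 ± 0.24 (edgeR adjusted p = 0.0106), and Tle4, by -0.97 ± 0.20 (edgeR adjusted p = 0.0226), 2 of the 51 where 2.7% of all genes were called. Neither was called without the second E16.5 p18mKO2+ library, and 1 of the pair was called without the first E13.5 p18mKO2+, the second E16.5 p18mKO2- or the first E16.5 p18mKO2+ library. Dtx1 in E13.5 p18mKO2+, at 70.9 ± 1.01 CPM, lay between E13.5 p18mKO2-, at 25.1 ± 6.66 CPM, and E16.5 p18mKO2-, at 100.6 ± 10.5 CPM. In CPM, Notch3, Dll1, Hes1, Hes5 and Hey1 in E13.5 p18mKO2+ also lay between those 2 groups, with separate ranges on each side. In TPM the E13.5 ranges of Notch3 and Hey1 overlapped. The share of all genes that lay between in this way was not taken.

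**Figure D5:**
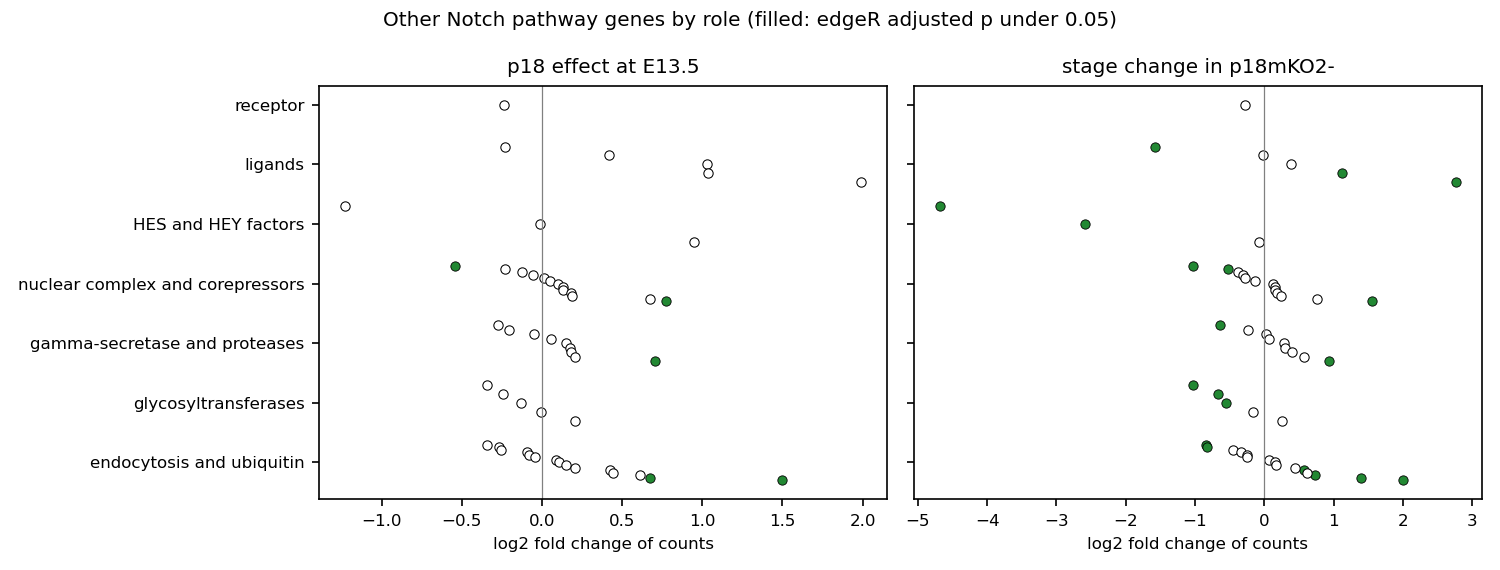
Log2 fold changes (horizontal axis) of the 51 other pathway genes tested, in rows by role, for p18mKO2+ over p18mKO2- at E13.5 (left) and E16.5 over E13.5 in p18mKO2- (right), filled where the edgeR adjusted p was under 0.05. At E13.5, 4 filled points lie above 0 and 1 below, and between stages 8 and 11.

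Across the 12 libraries the 10 genes did not follow one pattern. By Pearson correlation of log2 CPM, given as a description because libraries share stage, depth and cell makeup, Dll1 and Hes5 were the closest pair (r = 0.964), followed by Notch1 and Notch3 (r = 0.944) and by Hes1 and Hey1 (r = 0.939). Dll3 and Jag1 were the least alike (r = 0.067). Among 10156 genes compared, those most like Hes5 were the helicase gene Ddx11 (r = 0.98), the homeobox gene Pbx2 (r = 0.971) and the ciliary neurotrophic factor receptor gene Cntfr (r = 0.97). Those most like Hes1 were Atad2 (r = 0.988), Prom1 (r = 0.987) and Chd1l (r = 0.986). Dll1 was closest to the collagen gene Col2a1 (r = 0.99), Cntfr (r = 0.986) and Myb (r = 0.984). Jag1 had no near match by comparison, with Abcg1 (r = 0.853), Ttf1 (r = 0.85) and Hic2 (r = 0.812) closest.

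By position on GRCm38, Notch1 (ENSMUSG00000026923) lies at chr2:26457903-26516663 on the minus strand, Notch2 (ENSMUSG00000027878) at chr3:98013527-98150361 on the plus strand and Notch3 (ENSMUSG00000038146) at chr17:32120820-32166852 on the minus strand. Dll1 (ENSMUSG00000014773) lies at chr17:15367354-15376872, Dll3 (ENSMUSG00000003436) at chr7:28293553-28302238 and Jag1 (ENSMUSG00000027276) at chr2:137081456-137116644, all on the minus strand. Hes1 (ENSMUSG00000022528) lies at chr16:30064384-30067796 and Hes5 (ENSMUSG00000048001) at chr4:154960923-154962371 on the plus strand, and Hes6 (ENSMUSG00000067071) at chr1:91411483-91414038 and Hey1 (ENSMUSG00000040289) at chr3:8663359-8667256 on the minus strand. Each value is for the whole gene, over its annotated transcripts. Annotated genes that overlap members held few counts, at most 40 in a library for 0610009E02Rik, which is antisense to Notch1, against at least 926 for Notch1. The mean transcript length that enters TPM varied for some members, from 1994 to 2784 bases for Dll1 and from 5369 to 8016 bases for Notch3 over the 12 libraries.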

How the data were processed

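Laser-microdissected ventricular zone was profiled by RNA-seq from polyadenylated RNA with a directional kit, per the labels' protocols. Trimming with cutadapt 3.4, alignment with STAR 2.7.2b and quantification with RSEM 1.2.31 on GRCm38 (mm10) are named in the submitters' processing notes, without the annotation release or strand setting. The deposited tables give RSEM expected counts, which are estimated counts because reads that map to several genes are shared out, per the file headers. The deposited TPM, also per the file headers, is a level per effective length that sums to the same total in every library. Total estimated counts ran from 17101971 to 21837088 per library, and the number of libraries limits the precision.

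Rounded counts that passed filterByExpr were normalised by TMM, and edgeR 4.0.16 (R 4.3.3) quasi-likelihood fits used all 12 libraries and 1 mean per group, with 8 residual degrees of freedom and a common biological coefficient of variation of 0.311. P-values were adjusted over 16798 genes by the Benjamini-Hochberg method. The SE is the size of the log2 fold change over the square root of its F statistic. The code was tested on simulated counts. Symbols came from GENCODE M21 for 55227 of 55487 identifiers.

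The 10 members and the lists were chosen with earlier results of these data known. Named beside the members were, of the other pathway genes, the 6 called with the smallest p per comparison and receptors, ligands and HES or HEY genes with a mean TPM of at least 1; for Hes5, Hes1, Dll1 and Jag1, the 3 genes of mean TPM at least 5 most correlated in log2 CPM (prior count 2). Libraries that share a replicate number across groups were not treated as pairs. Alternatives were RLE size factors, a mean CPM of at least 5 or no filter, a replicate block, DESeq2 1.42.0, limma-voom and limma 3.58.1 on log2(TPM + 1), only the groups compared, and leaving out each library. Chosen after seeing the data were leaving out the 2 libraries with Xist and Y-linked transcripts, and Y-linked expression or the ribosomal RNA gene CT010467.1 as a covariate. Figures were drawn with matplotlib 3.10.9.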

Additional observations from a re-analysis of the deposited data

Results flagged for a closer look

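The p18 effect differed between E13.5 and E16.5 for 1 of the 10 genes and for 2 other pathway genes, by a test of the difference itself (E16.5 minus E13.5, edgeR quasi-likelihood with Benjamini-Hochberg adjustment), where 2.7% of all genes were called. Hes5 differed by 1.32 on the log2 scale (edgeR adjusted p = 0.0412), its effect being -0.93 at E13.5 and then 0.40. That call held in 8 of 22 alternatives and was lost without most single libraries. Dtx1 differed by -1.32 (edgeR adjusted p = 0.0106), with an effect of 1.498 at E13.5 that was 0.18 at E16.5. Tle4 differed by -0.97 (edgeR adjusted p = 0.0226), its effect being 0.78 at E13.5 and then -0.19.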

How the results depend on the processing

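Of 1140 values of single genes under other settings, 1010 kept their direction and side of the threshold, 60 lost and 33 gained a call, and 37 changed sign, none of those 37 from a called value. The stage change in p18mKO2- was the steadiest: Dll1, Hes1, Hes5, Hes6, Hey1 and Notch3 were called in all 23 alternatives, and Dll3 and Notch1 in 20. Between 7 and 8 of the 10 were called when single libraries were left out, 0 to 5 (4 as reported) for the p18 effect at E13.5, 0 for that at E16.5, 1 to 5 (2 as reported) for the stage change in p18mKO2+ and 0 to 2 (1 as reported) for the difference between stages. For the other pathway genes these ranges were 13 to 20, 2 to 8, 0, 0 to 4 and 0 to 2, against 19, 5, 0, 1 and 2 as reported. The cause was not tested for any of these.

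For the p18 effect at E13.5, the number of the 10 called was 1 on log2(TPM + 1), 1 without the 2 libraries that held Xist and Y-linked transcripts (the mixed libraries), 1 with the Y-linked covariate and 0 with the ribosomal RNA covariate. For the stage change in p18mKO2+ it was 5 with no filter, 4 at a mean CPM of at least 5, 4 with the replicate block, 5 by DESeq2, 4 by limma-voom, 0 without the mixed libraries and 1 with the ribosomal RNA covariate. For the difference it was 2 with no filter, at a mean CPM of at least 5, with the replicate block, by DESeq2 and with the ribosomal RNA covariate, and 0 on log2(TPM + 1), without the mixed libraries and with the Y-linked covariate.

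Of the other pathway genes, the number called for the p18 effect at E13.5 was 9 with no filter, 8 by DESeq2, 3 on log2(TPM + 1), without the mixed libraries and with the Y-linked covariate, and 2 with the ribosomal RNA covariate. At E16.5 it was 1 with no filter. For the stage change in p18mKO2- it was 11 on log2(TPM + 1). For the stage change in p18mKO2+ it was 2 with RLE size factors, 5 with no filter, 3 at a mean CPM of at least 5, 4 with the replicate block, 6 by DESeq2, 3 by limma-voom, 4 with only the groups compared, and 0 on log2(TPM + 1), without the mixed libraries and with the Y-linked covariate. For the difference it was 0 on log2(TPM + 1) and without the mixed libraries.

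Uncalled log2 changes that reversed were, on log2(TPM + 1), Notch3 at E13.5 (0.0488), Jag1 (0.0697), Hes1 (0.19) and Hey1 (0.39) at E16.5, Jag1 between stages in p18mKO2+ (0.0027) and Dll3 in the difference (0.079). With the ribosomal RNA covariate they were Hes1 (0.44) and Hey1 (0.44) at E16.5, Hes6 between stages in p18mKO2+ (0.0577), and Dll3 (0.17) and Jag1 (-0.15) in the difference. Without the mixed libraries they were Jag1 (0.19), Hes1 (0.15) and Hes6 (-0.0713) at E16.5 and Jag1 between stages in p18mKO2+ (0.35). Jag1 at E16.5 was 0.0107 with no filter and 0.0034 at a mean CPM of at least 5, and Hes6 was -0.0536 with the Y-linked covariate. With single libraries left out the ranges of the uncalled changes that included a reversal were, at E16.5, -0.1159 to 0.6019 for Notch1, -0.1008 to 0.4443 for Notch2, -0.1267 to 0.1943 for Jag1, -0.2955 to 0.1908 for Hes1, -0.0937 to 0.1294 for Hes6 and -0.282 to 0.016 for Hey1. Between stages in p18mKO2+ they were -0.1024 to 0.2759 for Notch2 and -0.1728 to 0.1514 for Jag1, and in the difference -0.1035 to 0.1039 for Dll3 and -0.0153 to 0.3094 for Jag1.

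Over all genes, calls for the p18 effect at E13.5 were 1810 as reported, 1063 on log2(TPM + 1), 796 without the mixed libraries, 939 with the Y-linked covariate and 740 with the ribosomal RNA covariate, and 927 to 2383 with single libraries left out. At E16.5 they were 0 as reported, 81 with no filter, 16 by DESeq2, 2 by limma-voom and 1 without the mixed libraries. For the stage change in p18mKO2+ they were 275 as reported, and 970 with no filter, 547 with the replicate block, 848 by DESeq2, 155 on log2(TPM + 1), 622 with only the groups compared, 116 without the mixed libraries and 148 with the Y-linked covariate. For the difference they were 453 as reported, and 1168, 767, 1122, 50, 149 and 295 with no filter, the replicate block, DESeq2, log2(TPM + 1), without the mixed libraries and with the Y-linked covariate. Of calls in the stage change in p18mKO2+, 66.2% were higher by counts and 91.0% by TPM. In the difference 50 were higher and 403 lower by edgeR, and 273 higher and 849 lower by DESeq2.

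Same-numbered libraries correlated at -0.069 to 0.283 over 18 pairs, 8 of them over 0.1. Of 12 libraries, 10 correlated best with their own number. What the number stands for is not given, and such sharing is not modelled in the main fit. The replicate block called 2369 genes for the p18 effect at E13.5, against 1810 in the main fit. With the replicate block the p18 effect at E13.5 kept its 4 calls. With 3 libraries a group, the intervals bound the changes only of those uncalled genes for which they are given.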
